A study of Mus musculus with 6 samples.

Results

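Matricellular proteins are secreted into the extracellular matrix but do little to build it. They bind collagens, proteoglycans, growth factors and cell-surface receptors such as integrins, and so tune how cells attach, migrate and signal. Fibroblasts and other mesenchymal cells are the usual sources, and many of these genes respond to TGF-beta and to mechanical tension. The 10 genes described here were chosen by name: the thrombospondins Thbs1, Thbs2, Thbs3 and Thbs4, the tenascins Tnc and Tnxb, periostin (Postn), Sparc, and the SPARC-related genes Smoc1 and Smoc2. All 10 were found among the 55401 genes of the files, and 9 of them passed the filter on low values that left 16137 genes for testing. Thbs4 did not pass.

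The material was RNA of 6 lines of primary cancer cells, grown out of tumours of C57BL/6 mice. The hosts of 3 lines were labelled Rag1KO (replicates 1, 3 and 7) and those of the other 3 were labelled WT (replicates 2, 4 and 6). Mice that lack Rag1 cannot rearrange their antigen receptor genes and have no mature T or B cells, and the lines compare cancer cells from hosts without and with adaptive immunity. Each line is a culture of digested tumour tissue, and the labels do not state the tumour type, the age and sex of the hosts, the passage number or whether each line came from its own animal, so each p-value below reflects only how far these cultures spread.

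The libraries held 55409583 to 62998051 reads assigned to genes. Values are reads divided by 1 size factor per library, called normalized counts, and a library's limit for a count of 0 (3 reads) is 2.64 to 3.48 normalized counts. Rag1 was read 41, 109 and 183 times in Rag1KO replicates 1, 3 and 7 and 0 times in all 3 lines labelled WT. Absence of the whole gene would give no reads in the first group. Gene-level counts cannot locate those reads within Rag1, so an altered allele that is still transcribed and exchanged labels cannot be told apart. The groups are called by their labels throughout. Xist, a transcript of female cells, had at most 15.3 normalized counts in lines labelled Rag1KO, against 59775 (replicate 2), 32733 (replicate 4) and 5.28 (replicate 6) in lines labelled WT, so that of the lines labelled WT only replicate 6 resembled those labelled Rag1KO in this transcript. Of the Y-chromosome genes, Ddx3y had 2945, 5332 and 2156 normalized counts in Rag1KO replicates 1, 3 and 7. In WT replicates 2, 4 and 6 it had 2.01, 0.966 and 4345. Kdm5d and Uty followed the same split, while Eif2s3y had 0 reads in all 3 lines labelled WT. Sex-linked transcripts thus went with the labels except in WT replicate 6, and the 2 cannot be told apart in the other 5 lines. The cultures carried mesenchymal markers: a list of 9 fibroblast genes summed to 334562 to 415931 normalized counts in lines labelled Rag1KO and 88858 to 416299 in lines labelled WT, the lowest value being WT replicate 6. The 8 pericyte and smooth muscle genes summed to 70292 to 472481 normalized counts in lines labelled Rag1KO and 6841 to 150199 in lines labelled WT. In Rag1KO replicate 3 that sum was above the sum of the fibroblast list. The remaining lists were lower but not empty. The 7 epithelial genes summed to 1761 to 6337 normalized counts in lines labelled Rag1KO and 10.6 to 4856 in lines labelled WT, with 3 genes passing the filter, mostly Krt19, and Epcam at 0 in every line. The 8 leukocyte genes summed to 313 to 1780 (Rag1KO) and 132 to 732 (WT), with 3 passing (Cd68, Csf1r and Lyz2), Ptprc at 4 reads or fewer and Cd3e at 0. The 7 melanocyte genes summed to 711 to 1770 (Rag1KO) and 639 to 2254 (WT), with 2 passing (Mitf and Pmel) and Dct at 0. The 7 endothelial genes summed to 306 to 1657 (Rag1KO) and 49.3 to 1186 (WT), and the 7 Schwann and neural crest genes to 180 to 1661 (Rag1KO) and 133 to 282 (WT), each with 5 passing. The part of such cells in the values below was not tested. In bulk cultures, fewer cells of a type and less RNA per cell cannot be told apart.

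Several matricellular genes were among the most abundant transcripts of 5 lines, and together the 10 took a much smaller share in the sixth, WT replicate 6. The 10 genes together took 2.36%, 3.88% and 2.27% of the reads in Rag1KO replicates 1, 3 and 7, against 2.65%, 1.61% and 0.161% in WT replicates 2, 4 and 6. The 95% Wilson intervals of these shares reach at most 0.00509 percentage points to either side and cover counting error only. Thbs1, Sparc, Postn and Thbs2 made up most of the total in each of the 5 lines, while Sparc alone held nearly all that remained in WT replicate 6.

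**Figure D1:**
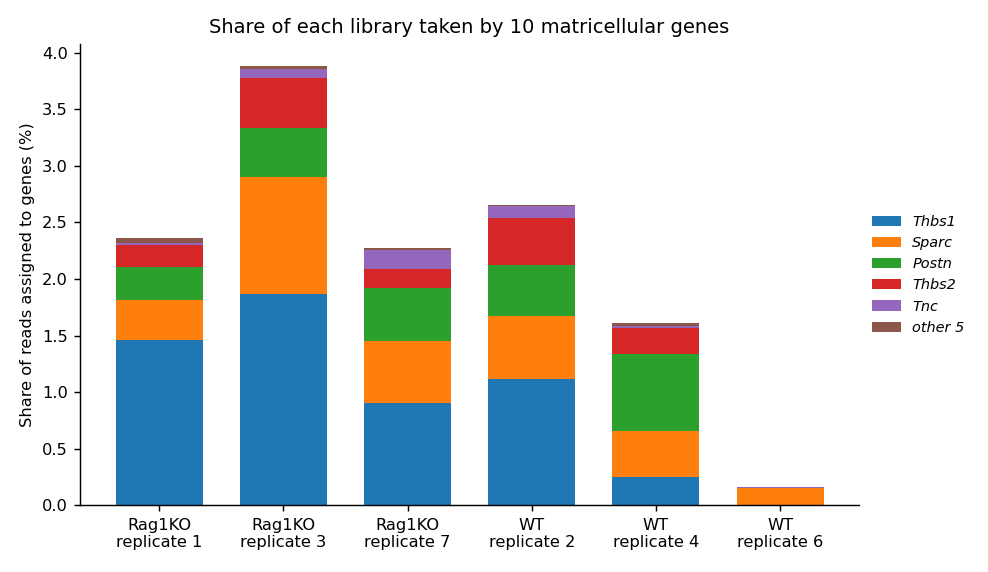
Stacked bars give the percentage of each library's gene-assigned reads that came from the 10 matricellular genes, with the 5 least abundant added up. The bars of the 3 lines labelled Rag1KO reach 2.36%, 3.88% and 2.27%, those of WT replicates 2 and 4 reach 2.65% and 1.61%, and that of WT replicate 6 stops at 0.161%.

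None of the tested members differed between the groups in the test over all genes. With limma on log2(value + 1), 0 of the 9 passed an adjusted p of 0.05, where 1 of 16137 genes (0.00620%) did. Without WT replicate 6 it was also 0 of the 9, beside 0.0310% of all genes, and 0 at an unadjusted p under 0.05 beside 4.11%. DESeq2 on the recovered reads also called 0 of the 9 (0.403% of all genes; without WT replicate 6, again 0, beside 0.787%) and edgeR's quasi-likelihood test 0 (0 of all genes). At an unadjusted p under 0.05, limma gave 1 of the 9 (Thbs3) beside 4.67% of all genes, DESeq2 the same gene beside 6.54%, and edgeR 0 beside 4.44%. All 9 had a higher mean log2 level in lines labelled Rag1KO, against 50.0% of all genes, with a median log2 fold change (Rag1KO minus WT) of 1.72 against −0.000303 over all genes. Without WT replicate 6, 6 of the 9 were higher in lines labelled Rag1KO, against 47.8% of all genes, and the median was 0.67. In 0 of the 9 did the groups separate, where 5.60% of all genes were higher in every line labelled Rag1KO and 6.49% lower. Within the 4 lines low in Xist, WT replicate 6 stands alone for its label. A limma fit with high or low Xist as a covariate called 4 of the 9 (Thbs1, Thbs2, Postn and Smoc2, all higher in lines labelled Rag1KO), beside 5.81% of all genes, and that fit compares the 3 lines labelled Rag1KO with this 1 line.

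**Figure D2:**
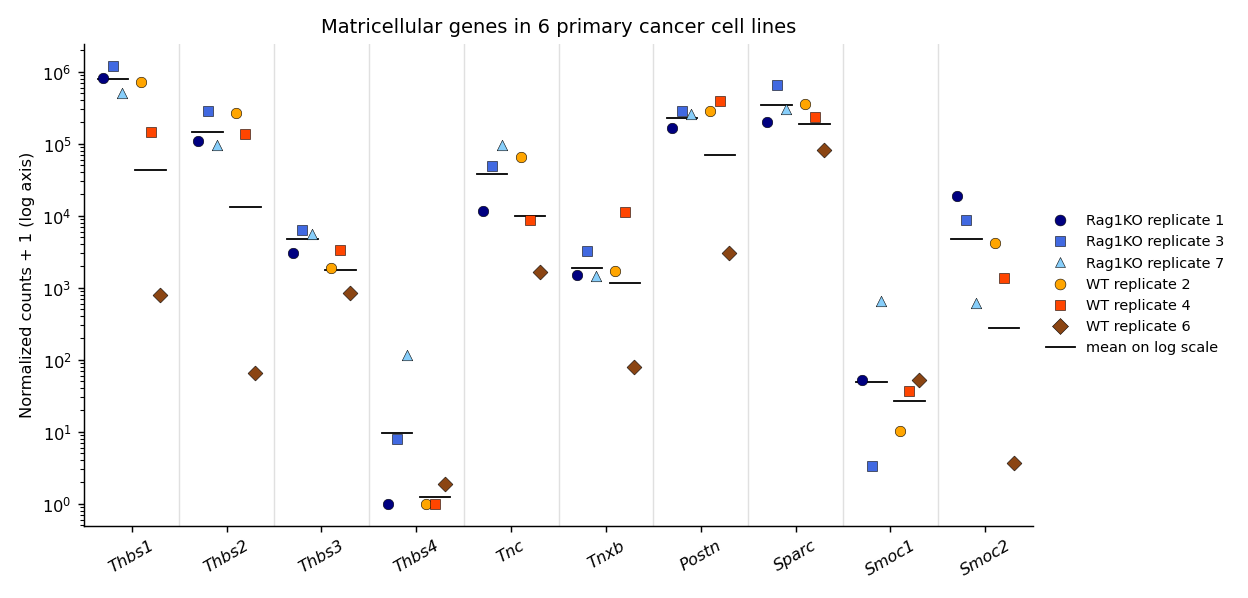
Each point is 1 line's normalized count plus 1 for a matricellular gene, on a log axis, with lines labelled Rag1KO in blue on the left and lines labelled WT in orange to brown on the right of each gene; black bars are means on the log scale. WT replicate 6 (brown diamonds) lies below the other 5 lines for Thbs1, Thbs2, Thbs3, Tnc, Tnxb, Postn, Sparc and Smoc2.

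Thrombospondins 1 and 2 form trimers, carry the type 1 repeats through which they inhibit blood vessel growth, and bind the receptors CD36 and CD47; thrombospondin 1 in addition activates latent TGF-beta. Thbs1 (ENSMUSG00000040152.8, mm10 chromosome 2, 118111876 to 118127133, forward strand) had 825477, 1201970 and 500480 normalized counts in Rag1KO replicates 1, 3 and 7, against 711221, 143841 and 777 in WT replicates 2, 4 and 6. It was the most abundant gene of the whole library in Rag1KO replicates 1 and 3 and in WT replicate 2, ranked 4 and 19 in Rag1KO replicate 7 and WT replicate 4, and ranked 8519 in WT replicate 6. The groups overlapped through WT replicate 2, and WT replicates 4 and 6 were the lowest lines. The log2 fold change was 4.20 (SE 2.46, 95% interval −1.83 to 10.23, adjusted p = 0.850), and it was 1.31 (SE 0.81, −0.73 to 3.35) without WT replicate 6. The lowest of the other 5 lines still had 185 times the Thbs1 level of WT replicate 6.

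Thbs2 (ENSMUSG00000023885.9, chromosome 17, 14665500 to 14694235, reverse strand) showed the sharpest contrast between WT replicate 6 and the rest among the members with more than 3 reads there. It had 108532, 283554 and 94583 normalized counts in Rag1KO replicates 1, 3 and 7, against 262124, 135107 and 65.1 in WT replicates 2, 4 and 6. Among the 5 other lines the range was 3-fold, and the lowest of them had 1453 times the level of WT replicate 6. The group difference changed sign with that library, the limma log2 fold change being 3.43 (SE 3.17, −4.34 to 11.19, adjusted p = 0.850) with all 6 lines and −0.40 (SE 0.60, −1.92 to 1.12) without it. On the recovered reads of all 6 lines it was only 0.31 by edgeR and 0.30 by DESeq2. Per kilobase of exon, Thbs1 exceeded Thbs2 in every line, with a ratio of normalized counts per kilobase of 8.77, 4.89 and 6.1 in Rag1KO replicates 1, 3 and 7, against 3.13, 1.23 and 13.8 in WT replicates 2, 4 and 6. The ratio of the 2 paralogues was thus lowest in WT replicate 4, the line in which Thbs1 was low while Thbs2 stayed in the range of the others.

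Thrombospondins 3 and 4 form pentamers and lack the type 1 repeats; they are known from skeletal tissue, muscle and tendon. Thbs3 (ENSMUSG00000028047.11, chromosome 3, 89215180 to 89226837, forward strand) was moderately expressed in every line, at 3060, 6370 and 5632 normalized counts in Rag1KO replicates 1, 3 and 7, against 1872, 3351 and 839 in WT replicates 2, 4 and 6. The groups overlapped only in that WT replicate 4 lay above Rag1KO replicate 1. Its mean was 5021 ± 1738 normalized counts in lines labelled Rag1KO against 2021 ± 1263 in lines labelled WT (SD, n = 3 each). Its log2 fold change was 1.46 (SE 0.56, 0.08 to 2.84, unadjusted p = 0.0409, adjusted p = 0.850, limma), the most precise of the members, and 0.93 (SE 0.42, −0.14 to 2.0) without WT replicate 6. Thbs3 shares 318 exon bases with Mtx1 on the opposite strand, and the counting strand is not given in the sources used here; Mtx1 was at 1168 to 1268 normalized counts in lines labelled Rag1KO and 943 to 1499 in lines labelled WT, and was highest in WT replicate 6, where Thbs3 was lowest.

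Thbs4 (ENSMUSG00000021702.7, chromosome 13, 92751590 to 92794818, reverse strand) was nearly silent. It had 0, 6 and 117 reads in Rag1KO replicates 1, 3 and 7, against 0, 0 and 1 in WT replicates 2, 4 and 6, so that Rag1KO replicate 7, at 113 normalized counts, was the only line above the limit for no reads by a wide margin. No test was made with the filter.

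Tenascins are large glycoproteins built of EGF-like and fibronectin type III repeats. Tenascin C appears in embryos, wounds and tumour stroma, and tenascin X, whose loss in humans causes a form of Ehlers-Danlos syndrome, organises collagen in mature connective tissue. Tnc (ENSMUSG00000028364.15, chromosome 4, 63959785 to 64047015, reverse strand) had 11466, 49195 and 94623 normalized counts in Rag1KO replicates 1, 3 and 7, against 64319, 8711 and 1644 in WT replicates 2, 4 and 6. Both groups held low and high lines, the 5 lines other than WT replicate 6 spanning 10.9-fold. The log2 fold change was 1.95 (SE 1.46, −1.62 to 5.53, adjusted p = 0.850), or 0.67 (SE 1.20, −2.35 to 3.69) without WT replicate 6.

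Tnxb (ENSMUSG00000033327.18, chromosome 17, 34670535 to 34719815, forward strand) followed another order of lines. It had 1511, 3183 and 1431 normalized counts in Rag1KO replicates 1, 3 and 7, against 1719, 11398 and 77.4 in WT replicates 2, 4 and 6. WT replicate 4 was thus the highest line for tenascin X and, apart from WT replicate 6, the lowest for tenascin C. Per kilobase of exon the ratio of Tnc to Tnxb was 11.9, 24.3 and 104 in Rag1KO replicates 1, 3 and 7, against 58.8, 1.2 and 33.3 in WT replicates 2, 4 and 6. The log2 fold change was 0.72 by limma (SE 1.75, −3.56 to 5.0, adjusted p = 0.937) and −1.22 (SE 0.86, −3.38 to 0.94) without WT replicate 6. On the recovered reads its sign was already negative with all 6 lines, at −1.10 by both edgeR (adjusted p = 0.919) and DESeq2 (adjusted p = 0.990).

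Periostin binds collagen I and integrins and supports collagen cross-linking. Postn (ENSMUSG00000027750.16, chromosome 3, 54361109 to 54391037, forward strand) had 165856, 281511 and 258783 normalized counts in Rag1KO replicates 1, 3 and 7, against 287433, 390024 and 2994 in WT replicates 2, 4 and 6. Leaving WT replicate 6 aside, both lines labelled WT lay above all 3 lines labelled Rag1KO, as they did for 11.2% of all genes tested. Its log2 fold change was 1.72 (SE 1.88, −2.89 to 6.34, adjusted p = 0.861) with all 6 lines and −0.55 (SE 0.38, −1.51 to 0.42, adjusted p = 0.983) without that library, both by limma.

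SPARC is a collagen-binding glycoprotein of bone and connective tissue that loosens cell adhesion. Sparc (ENSMUSG00000018593.13, chromosome 11, 55394500 to 55423183, reverse strand) had 199357, 658176 and 303313 normalized counts in Rag1KO replicates 1, 3 and 7, against 351412, 233113 and 82038 in WT replicates 2, 4 and 6. It was the member best kept in WT replicate 6 among the abundant ones, ranking 47 of all genes there and 4 to 13 in the other 5 lines. The log2 fold change was 0.86 (SE 0.71, −0.89 to 2.60, adjusted p = 0.850), or 0.25 (SE 0.59, −1.24 to 1.75) without WT replicate 6. The ratio of Sparc to Postn per kilobase of exon was 2.76, 5.37 and 2.69 in Rag1KO replicates 1, 3 and 7, against 2.81, 1.37 and 62.9 in WT replicates 2, 4 and 6, and was highest by far in WT replicate 6.

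SMOC1 and SMOC2 share a calcium-binding domain with SPARC and are found at basement membranes; in frog embryos SMOC1 inhibits BMP signalling. Smoc2 (ENSMUSG00000023886.10, chromosome 17, 14279506 to 14404790, forward strand) had 18512, 8816 and 620 normalized counts in Rag1KO replicates 1, 3 and 7, against 4161, 1352 and 2.64 in WT replicates 2, 4 and 6. The last value is 3 reads, no more than a count of 0 allows. Its range of 29.9-fold over the other 5 lines was wider than for Thbs1, Thbs2, Thbs3, Tnc, Tnxb, Postn or Sparc, and its log2 fold change was 4.09 (SE 2.86, −2.91 to 11.09, adjusted p = 0.850), or 0.97 (SE 1.51, −2.84 to 4.79) without WT replicate 6. Smoc1 (ENSMUSG00000021136.13, chromosome 12, 81026808 to 81186414, forward strand) was low throughout, at 50.8, 2.32 and 657 normalized counts in Rag1KO replicates 1, 3 and 7, against 9.06, 35.7 and 51.9 in WT replicates 2, 4 and 6. It was the 1 tested member not at its lowest in WT replicate 6. Its log2 fold change of 0.84 (SE 1.94, −3.91 to 5.59, adjusted p = 0.934) depended on Rag1KO replicate 7, without which it was −1.04. Per kilobase of exon, Smoc2 was 183 times Smoc1 in Rag1KO replicate 1 and 0.475 times Smoc1 in Rag1KO replicate 7, against 231 times in WT replicate 2 and 19.0 times in WT replicate 4. Smoc1 was above Smoc2 in WT replicate 6 as well, with 59 reads of Smoc1 and 3 of Smoc2, and in Rag1KO replicate 3 Smoc1 had 2 reads, so no ratio is given for these lines. Thbs4 and Smoc1, the members lowest over all, both had their highest level in Rag1KO replicate 7. The Schwann and neural crest list and the endothelial list also had their highest sums in that line.

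**Figure D3:**
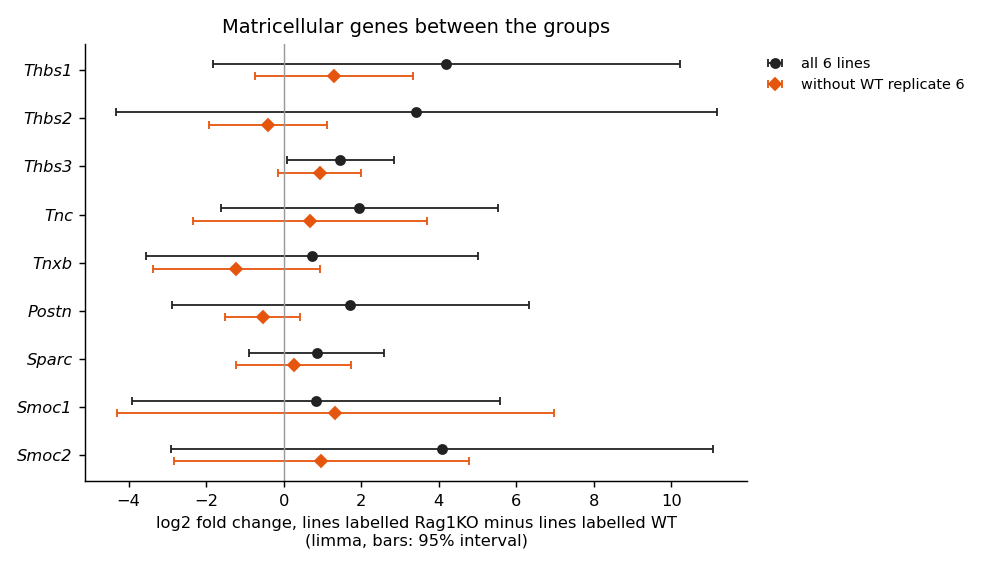
Points are limma log2 fold changes, lines labelled Rag1KO minus lines labelled WT, with 95% intervals, for the 9 members tested; black circles use all 6 lines and orange diamonds leave out WT replicate 6. All black points lie right of 0, and the orange ones for Thbs2, Tnxb and Postn lie left of it.

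Ordered by the median of normalized counts per kilobase of exon over the 6 lines, Thbs1 came first (99761 per kilobase), followed by Sparc (70806), Postn (31044), Thbs2 (17395), Tnc (3903), Thbs3 (665), Smoc2 (397), Tnxb (132), Smoc1 (12.4) and Thbs4 (0.134). Neighbours in this order exchanged places between lines: per kilobase, Sparc exceeded Thbs1 in WT replicates 4 and 6, and Thbs2 exceeded Postn in Rag1KO replicate 3 and WT replicate 2. WT replicate 6 was the lowest line for 8 of the 9 members tested, against 30.2% of all genes. It lay more than 10-fold below the lowest of the other lines for 5 of the 9 (Thbs1, Thbs2, Tnxb, Postn and Smoc2), against 6.09% of all genes. Among the 7933 genes with a median over 1000 normalized counts in the other 5 lines, that share was 3.13%, and 5 of the 8 members among them. These are descriptions of 1 line. Of the highest levels, 4 of the 9 were in Rag1KO replicate 3 (Thbs1, Thbs2, Thbs3 and Sparc; 16.2% of all genes), 2 in Rag1KO replicate 7 (Tnc and Smoc1; 15.2%), 2 in WT replicate 4 (Tnxb and Postn; 13.9%) and 1 in Rag1KO replicate 1 (Smoc2; 12.7%).

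Smoc2 and Thbs2 are adjacent protein-coding genes on chromosome 17, 260709 bases apart. The annotation places a pseudogene and a long non-coding RNA gene between them, both with at most 2.64 normalized counts in every line. Both coding genes were lowest in WT replicate 6. Smoc2 had 3 reads there, no more than a count of 0 allows, while Thbs2 had 74 reads, above that limit. Elsewhere these coding genes did not keep the same order, since Smoc2 was highest in Rag1KO replicate 1 and Thbs2 in Rag1KO replicate 3. Thbs1 is overlapped on the opposite strand by the non-coding gene Gm29233, with 208 shared exon bases. Gm29233 had 356, 521 and 8.72 normalized counts in Rag1KO replicates 1, 3 and 7, against 390, 6.76 and 0 in WT replicates 2, 4 and 6. It was low in the 3 lines in which Thbs1 was lowest, and without a stated counting strand reads of the pair cannot be told apart.

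The stretches directly upstream of annotated starts are shown for 5 members, 4 that were low in WT replicate 6 to differing degrees (Thbs2, Postn, Tnxb and Tnc) and Thbs3, which was less so. Each is the 100 bases before a RefSeq start (GRCm38.p6), 5′ to 3′ on the gene's own strand, with matches to 5 short motifs in capitals. The windows are chr17:14694263-14694362 (reverse strand) for Thbs2, chr3:54361007-54361106 (forward) for Postn, chr17:34670435-34670534 (forward) for Tnxb, chr4:64047016-64047115 (reverse) for Tnc and chr3:89215080-89215179 (forward) for Thbs3.
Thbs2: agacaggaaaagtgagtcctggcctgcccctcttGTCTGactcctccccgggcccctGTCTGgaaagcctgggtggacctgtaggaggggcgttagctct
Postn: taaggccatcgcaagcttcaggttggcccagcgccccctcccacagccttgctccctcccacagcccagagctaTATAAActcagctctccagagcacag
Tnxb: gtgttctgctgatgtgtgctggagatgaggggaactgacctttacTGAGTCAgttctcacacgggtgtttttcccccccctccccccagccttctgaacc
Tnc: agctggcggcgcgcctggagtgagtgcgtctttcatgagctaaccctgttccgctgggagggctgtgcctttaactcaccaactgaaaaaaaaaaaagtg
Thbs3: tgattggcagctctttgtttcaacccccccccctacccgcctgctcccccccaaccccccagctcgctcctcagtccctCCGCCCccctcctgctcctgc
The capitals mark SMAD-type CAGAC in Thbs2 (read as GTCTG on this strand), a TATA box TATAAA in Postn 26 bases before the start, an AP-1-type TGANTCA in Tnxb, no match in Tnc, and a GC box GGGCGG in Thbs3 (read as CCGCCC). A TEAD-type motif, GGAATG, was searched as well, all on both strands, and none of the 5 contains another. Postn and Tnc have 2 starts each, of which 1 is printed. The 100 bases before the other Tnc start hold 1 CAGAC (read as GTCTG). Those before the other Postn start hold no match, so the TATA box is that of the printed start only. Windows of 250 bases were available for 7 of the 10 members with 9 starts in all, Thbs1, Smoc1 and Smoc2 being those without. The windows of the 2 Tnc starts overlap, and 1 TATAAA and 1 GGGCGG of Tnc are counted in both. CAGAC occurred in 6 of these 9 windows and in 42.2% of all 32851 windows, TATAAA in 4 (3 genes) and in 12.4%, GGGCGG in 4 (3 genes) and in 32.7%, TGANTCA in 1 and in 6.75%, and GGAATG in 1 and in 12.6%. A match is a run of letters and not a bound site.

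Other matricellular genes were taken as a list of 16, of which 12 passed the filter. None of the 12 was called by limma, and 9 had a higher mean in lines labelled Rag1KO, with a median log2 fold change of 1.51 against −0.000303 over all genes; without WT replicate 6, 8 were higher and the median was 0.32. WT replicate 6 was lowest for 8 of the 12, beside 30.2% of all genes, and highest for 2. The CCN genes Ctgf (CCN2) and Cyr61 (CCN1), which encode heparin- and integrin-binding growth regulators, had the same low point as Thbs1, Thbs2 and Thbs3. Nov (CCN3), chosen here after its values were seen, did not. It had 2708 normalized counts in WT replicate 6, inside the range of 109 to 11465 of the other 5 lines. Ctgf had 39340, 139392 and 6685 normalized counts in Rag1KO replicates 1, 3 and 7, against 36277, 2518 and 157 in WT replicates 2, 4 and 6 (log2 fold change 3.77, SE 2.13, adjusted p = 0.850, limma; 1.80 without WT replicate 6). Cyr61 averaged 25335 ± 12169 normalized counts in lines labelled Rag1KO and 15043 ± 13141 in lines labelled WT (SD, n = 3 each; log2 fold change 1.37, and 0.12 without WT replicate 6). Fstl1, a secreted SPARC relative, had 99339, 173006 and 142654 normalized counts in Rag1KO replicates 1, 3 and 7, against 98779, 88960 and 6637 in WT replicates 2, 4 and 6. Its groups did not overlap by a narrow margin, beside 5.60% of all genes in this direction. Its log2 fold change was 1.80 (SE 1.08, adjusted p = 0.850, limma), or 0.52 without WT replicate 6.

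Osteopontin and hevin were highest in WT replicate 6, each over 10-fold above the highest of the other lines, as 0.508% of all genes were. Spp1, encoding the integrin ligand osteopontin, had 10756, 597 and 4607 normalized counts in Rag1KO replicates 1, 3 and 7, against 29134, 11706 and 556239 in WT replicates 2, 4 and 6. The groups did not overlap, beside 6.49% of all genes in this direction, nor did they without WT replicate 6, beside 11.2%. The log2 fold change was −4.21 (SE 1.71, unadjusted p = 0.0494, adjusted p = 0.850) with that line and −2.58 (adjusted p = 0.983) without it, both by limma. Sparcl1, the SPARC paralogue hevin, chosen here after its values were seen, had 3386, 315 and 1479 normalized counts in Rag1KO replicates 1, 3 and 7, against 529, 2294 and 55620 in WT replicates 2, 4 and 6. Its log2 fold change was −1.80 with all lines and 0.08 without WT replicate 6. Per kilobase of exon, Sparcl1 was 0.874 times Sparc in WT replicate 6 and at most 0.0219 times Sparc in the other 5 lines. Spp1 was 15.6 times Sparc in WT replicate 6 and at most 0.191 times Sparc elsewhere. Tgfbi, a periostin paralogue, averaged 9796 ± 7628 normalized counts in lines labelled Rag1KO and 15457 ± 5403 in lines labelled WT (SD, n = 3 each), with WT replicate 6, at 17815, inside the range of the other lines. Comp, the fifth thrombospondin and a cartilage protein, was low at 70.4 ± 86.8 normalized counts in lines labelled Rag1KO against 48.8 ± 58.2 in lines labelled WT (log2 fold change 0.65, and −0.40 without WT replicate 6).

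**Figure D4:**
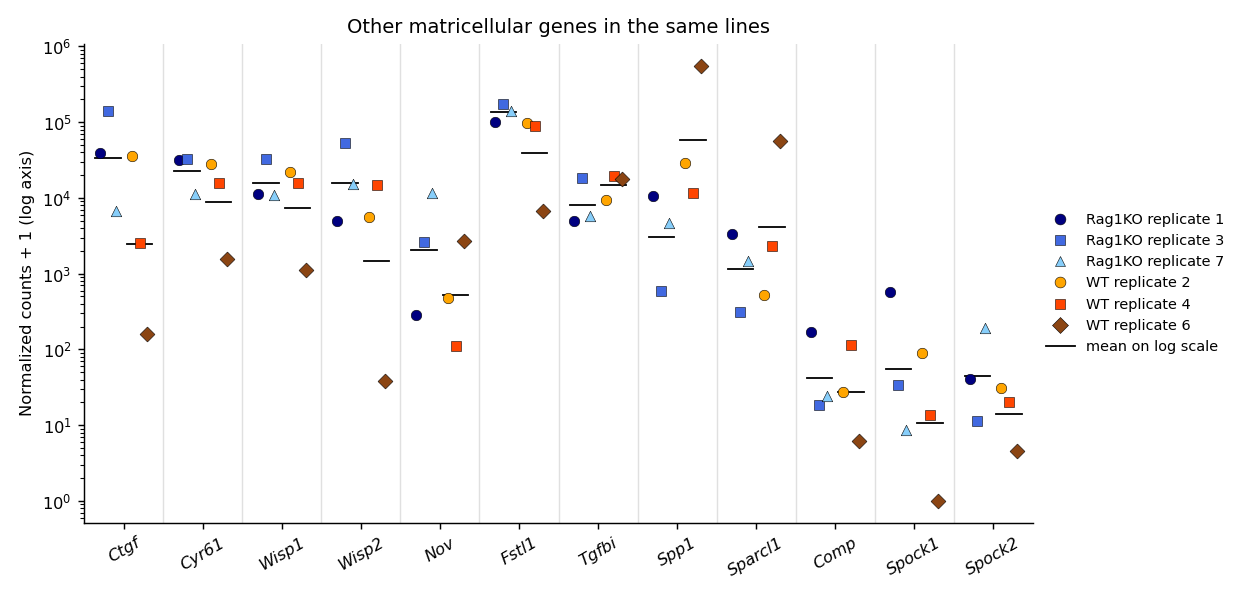
Each point is 1 line's normalized count plus 1 (log axis) for the 12 other matricellular genes that passed the filter, with lines labelled Rag1KO on the left of each gene and lines labelled WT on the right; black bars are means on the log scale. WT replicate 6 lies lowest for Ctgf, Cyr61 and Fstl1 and highest for Spp1 (556239 normalized counts) and Sparcl1 (55620).

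Of 21 receptor and uptake genes 19 were tested and none was called; 14 were higher in lines labelled Rag1KO with a median log2 fold change of 0.45 (13 and 0.25 without WT replicate 6). WT replicate 6 was lowest for 10 of the 19, beside 30.2% of all genes, and highest for 7. Cd47, the thrombospondin receptor that also signals to phagocytes, had 6694 ± 1792 normalized counts in lines labelled Rag1KO and 8131 ± 3730 in lines labelled WT (log2 fold change −0.20, SE 0.41, adjusted p = 0.919; 0.13 without WT replicate 6, so that the sign turned), and was highest in WT replicate 6, where Thbs1 and Thbs2 were lowest. Cd36 had at most 1 read in any line. Sirpa, the CD47 partner, averaged 3386 ± 1467 normalized counts in lines labelled Rag1KO against 2124 ± 1479 in lines labelled WT (log2 fold change 0.78, and 0.39 without WT replicate 6). The integrin genes Itgav, Itgb3 and Itgb1 averaged 18162 ± 2183, 1953 ± 1363 and 85183 ± 15175 normalized counts in lines labelled Rag1KO, and 14065 ± 6308, 1301 ± 1038 and 70923 ± 18390 in lines labelled WT. Their log2 fold changes were 0.45, 0.93 and 0.28 with all lines, and 0.19, −0.10 and 0.25 without WT replicate 6. The lowest unadjusted p values belonged to the integrin chains Itga3 (log2 fold change −1.58), Itga9 (2.43), a tenascin C receptor chain, and Itgb5 (1.08), each with an adjusted p of 0.850. Without WT replicate 6 these were −0.86, 0.96 and 0.43.

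Collagens and other matrix partners shared the low point only in part. All 17 were tested, none was called, 14 were higher in lines labelled Rag1KO with a median log2 fold change of 0.72, and without WT replicate 6, 10 were higher with a median of 0.11. WT replicate 6 was lowest for 10 of the 17, beside 30.2% of all genes, and highest for none. Col1a1, a chain of the collagen that SPARC and periostin bind, averaged 732051 ± 289551 normalized counts in lines labelled Rag1KO and 382179 ± 344126 in lines labelled WT, with 206 in WT replicate 6 (log2 fold change 4.10, and 0.30 without that line). Lox, the collagen cross-linking enzyme that periostin helps to activate, averaged 154885 ± 44786 normalized counts in lines labelled Rag1KO against 63797 ± 64062 in lines labelled WT, with 8.8 in WT replicate 6 (log2 fold change 5.13, and 0.75 without it). Fn1, encoding the fibronectin that binds thrombospondins and tenascins, was not low there, with 540523 normalized counts in WT replicate 6 inside the range of 277283 to 833459 of the other 5 lines. The fibrillar collagen genes Col5a1 and Col5a2 had the lowest p of the list along with Col12a1. The groups of Col5a1 and Col5a2 did not overlap, 2 of the 17 genes, beside 5.60% of all genes in this direction. Their log2 fold changes were 1.60 and 1.72 (adjusted p = 0.850 each, limma), or 0.81 and 0.91 without WT replicate 6.

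TGF-beta and YAP/TEAD genes, several of which raise matricellular transcripts in other cells, were tested as 18 of 18 and none was called. In this list 11 were higher in lines labelled Rag1KO, with a median log2 fold change of 0.09 (9 and 0.03 without WT replicate 6). Tgfb1, Tgfb2 and Tgfb3 averaged 1416 ± 570, 2646 ± 1695 and 6378 ± 4607 normalized counts in lines labelled Rag1KO, and 1443 ± 742, 964 ± 536 and 3137 ± 1429 in lines labelled WT. Their log2 fold changes were 0.02, 1.43 and 0.87 with all lines, and −0.28, 0.999 and 0.68 without WT replicate 6. Amotl2, a YAP/TEAD-responsive gene, averaged 22919 ± 5992 normalized counts in lines labelled Rag1KO and 9285 ± 6440 in lines labelled WT. Its groups did not overlap, 1 of the 18 genes, beside 5.60% of all genes in this direction. Its log2 fold change was 1.72 (adjusted p = 0.850, limma), or 0.79 without WT replicate 6. Smad7 averaged 1602 ± 640 in lines labelled Rag1KO against 1026 ± 142 in lines labelled WT.

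Markers of contractile cells had their low point and their high point in the same lines as several matricellular genes. The 8 pericyte and smooth muscle genes summed to 70292 to 472481 normalized counts in lines labelled Rag1KO, highest in replicate 3, and to 6841 to 150199 in lines labelled WT, lowest in replicate 6. By gene, WT replicate 6 was lowest for 5 of these 8, beside 30.2% of all genes, and highest for 1. The sums of the fibroblast, endothelial, epithelial, leukocyte, melanocyte and Schwann lists were lowest in WT replicate 6 as well. The margins differed between lists. The contractile sum was 6841 in WT replicate 6 and at least 70292 in the other lines, and the fibroblast sum 88858 against at least 334562. The endothelial sum was 49.3 against at least 306, the epithelial 10.6 against at least 1761 and the leukocyte 132 against at least 271. The melanocyte sum was 639 against at least 675, and the Schwann sum 133 against at least 143. Rag1KO replicate 3 was also the highest line for Thbs1, Thbs2, Thbs3 and Sparc. Thy1, a fibroblast surface marker chosen here after its values were seen, had 1 read in WT replicate 6 and at least 29802 normalized counts in the other lines, while Pdgfra, another fibroblast marker likewise chosen, had 16592 there. What share of the matricellular differences goes with these markers was not tested.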

How the data were processed

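Per the submitters' processing notes, the tools were STAR 2.7.9a, Trim Galore 0.6.6, DESeq2 and FastQC, with mm10 as the build and no roles stated; the read counter, its strand setting and its annotation are not given in the sources used here. Per the labels, a RNeasy kit gave the RNA and a TruSeq Stranded kit the libraries. The authors deposited 1 signal value per gene and library, and these are whole reads divided by 1 size factor: 100% of values were whole within 0.01 reads. Coordinates and exon lengths (merged exons) came from GENCODE M21, where 55141 of 55401 IDs were found.

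The low-value filter was filterByExpr (edgeR) applied to the reads. The main test was limma 3.58.1 with its trend option on log2(value + 1), two-sided, with Benjamini-Hochberg adjustment over 16137 genes and a threshold of 0.05; intervals are at 95%. Fold changes are on the log2(value + 1) scale, which understates those of low genes. Also run were DESeq2 1.42.0, edgeR 4.0.16 with TMM or RLE, limma-voom, TMM scaling, a pseudocount of 0.1, no filter, 1 CPM in 3 libraries, Xist as a covariate (over 1000 normalized counts or not) and leaving out each line. The tests were checked on simulated data with large planted changes. A pass was required only at a small spread between replicates, so the check does not show what would be found at the spread of these lines. Replicate numbers are not shared between the groups. The members, lists and tests were chosen with earlier results of these data known. Named genes are the 10 members, 18 genes fixed by name and up to 3 of the lowest p in each of the 4 lists; others are marked in the text as chosen later, except overlapping genes and marker lists. Of the genes fixed by name, 1 is not reported here. R 4.3.3, Python 3.11.15 and matplotlib 3.10.9 were used.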

Additional observations from a re-analysis of the deposited data

How the results depend on the processing

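No paired analysis was possible because the groups share no replicate numbers. The number of genes called over all genes was 1 by limma, 0 by edgeR with TMM or RLE and by limma-voom, 65 by DESeq2, and 0 to 5 with a line left out; without WT replicate 6, tried with count tests after the data were seen, edgeR called 0 and DESeq2 127. With Xist as a covariate it was 937 (5.81%), and 4 of the 9 members were called (Thbs1, Thbs2, Postn and Smoc2, with log2 fold changes of 9.99, 11.08, 6.26 and 10.32 and adjusted p of 0.00730, 0.00240, 0.00266 and 0.0436). Since only lines labelled WT were high in Xist, that fit sets the 3 lines labelled Rag1KO against WT replicate 6 alone, assumed to vary like the others. The number of members called was 0 under all other alternatives run. With all 6 lines, log2 fold changes by edgeR TMM and DESeq2 were 1.58 and 1.57 for Thbs1, 0.31 and 0.30 for Thbs2, and 0.06 each for Postn. Limma gave 4.20, 3.43 and 1.72 for these genes. Smoc1 went the other way, at 2.88 by both count tests against 0.84 by limma. The sign turned for Thbs2 and Postn without WT replicate 6 (−0.40 and −0.55; edgeR −0.28 and −0.51, DESeq2 −0.28 and −0.51). It turned for Tnxb without that line (−1.22; edgeR and DESeq2 −1.67) and by edgeR TMM, edgeR RLE and DESeq2 with all lines (−1.10 each). For Smoc1 it turned without Rag1KO replicate 7 (−1.04) and with Xist (−0.13). Leaving out each line in turn, log2 fold changes ranged from 1.31 to 6.23 for Thbs1, −0.40 to 5.58 for Thbs2, −1.22 to 2.37 for Tnxb, −0.55 to 2.97 for Postn, −1.04 to 2.78 for Smoc1 and 0.97 to 6.05 for Smoc2. Thbs3, Tnc and Sparc stayed positive, at 0.93 to 1.93, 0.67 to 3.31 and 0.25 to 1.30. The medians of the 4 gene lists moved by more than the spread between replicates in 2 of 60 cases, both for the other matricellular genes (0.32 without WT replicate 6 and 3.56 with Xist). Depth was not what limited the abundant members. Smoc1 in Rag1KO replicate 3 and Smoc2 in WT replicate 6 rested on 2 and 3 reads, which set no level.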
